A study of Mus musculus with 6 samples.

Results

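Inherited risk of Parkinson disease gathers in genes of the lysosome and of the vesicle traffic that feeds it. The 9 genes described here are the channel gene Tmem175 and 8 further mouse genes of that kind, Lrrk2, Rab29, Vps35, Vps13c, Gak, Atp13a2, Scarb2 and Gpnmb. They were chosen by name from what is known of the human disease, with earlier results of these data at hand. Each was matched by its current symbol to 1 Ensembl ID among the 55421 in the count table. All 9 passed the filter on low counts, which left 13588 genes to test.

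RNA was sequenced from primary mouse bone marrow-derived macrophages, cells grown in culture from marrow progenitors. The KO group comprised 3 wells of cells with floxed Tmem175 alleles and Lyz2-Cre, given in the labels as Tmem175flox/flox Lyz2-Cre+/- and as Tmem175-/-, and the WT group comprised 3 wells of wild type cells. No treatment is named for either group. Cre is driven here from the gene of lysozyme, which is active in myeloid cells, so the deletion depends on Cre having acted in each cell. Libraries from cells with Cre alone or with floxed alleles alone are not among the 6, so loss of Tmem175 cannot be told apart from effects of Cre, of its insertion at Lyz2 or of genetic background. The design text speaks of 3 wells for each genotype and of no separate animals, and so p-values measure only the spread between wells, which may be technical.

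The products of these genes act along the same route. Cargo taken up by a macrophage passes through early and late endosomes to lysosomes, where ion channels and pumps set the acidity in which hydrolases work. Retromer and clathrin coats carry receptors back from endosomes or forward from the Golgi, lipid transfer proteins feed the lysosomal membrane, and the kinase LRRK2 with its Rab GTPases responds to lysosomal stress. Macrophages and microglia are rich in lysosomes and express many of these genes.

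Total counts were 25979430 to 31542741 in KO and 24179548 to 25916709 in WT libraries. All 8 macrophage markers examined passed the filter and summed to 32133 to 36020.3 CPM (counts scaled to library size, with TMM factors) in KO and 50790.4 to 59819 CPM in WT libraries. Lyz2, a lysozyme gene and the site of the Cre insertion, was called among them, at 24326 ± 1578 CPM in KO and 45178 ± 4163 CPM in WT libraries (SD, n = 3 each; log2 fold change -0.89, adjusted p = 0.00415 by edgeR), and was called under all 14 alternative settings too. The other 7 summed to 8968 to 9898 CPM in KO and 8861 to 9997 CPM in WT libraries, and none of them was called. Markers of other marrow cells were present at lower sums: 6 dendritic cell markers summed to 14.6 to 21.6 CPM in KO and 18.8 to 26.9 CPM in WT, 6 erythroid and megakaryocyte markers to 61.5 to 100.2 CPM in KO and 84.7 to 146 CPM in WT, and 6 stromal and endothelial markers to 50.3 to 73.4 CPM in KO and 44.4 to 80.7 CPM in WT. Of the dendritic cell markers 5 had a negative log2 fold change and 1 a positive one, and 2 had an unadjusted p under 0.05 by edgeR. All 3 tested erythroid and megakaryocyte markers were negative, each with such a p, as had 5.44% of all genes. Of the stromal and endothelial markers 4 were negative and 2 positive, none with such a p. The main fit called none of these, and edgeR with no filter called Siglech, Itga2b and Ppbp. The first principal component of all tested genes, with 29.3% of the variance, did not separate the genotypes, and on the second, with 20.6%, every KO library lay below every WT library.

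Of the 9 genes, only Tmem175 passed the test between genotypes, lower in KO. A gene is called here at an adjusted p under 0.05 in edgeR's quasi-likelihood test over all 13588 genes, of which 14 were called, 0.103% of those tested, with 0.0883% lower and 0.0147% higher in KO. Leaving out 1 library at a time left 4 to 12 genes called over all genes and the same 1 of the 9, Tmem175. In 2 of the 9, Tmem175 and Lrrk2, the 3 KO libraries lay all below or all above the 3 WT libraries, a pattern shown by 10.8% of all tested genes. Without KO replicate 2 the count was 4, with Vps13c and Atp13a2 added, 2 KO libraries then being set against 3. Full separation is easier to reach with fewer libraries. The share over all genes was not computed for that setting, so 10.8% is no background for the count of 4. For each of the remaining 7 genes the log2 fold change lay between -0.05 and 0.05, beside a median of -0.00090 over all genes.

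**Figure D1:**
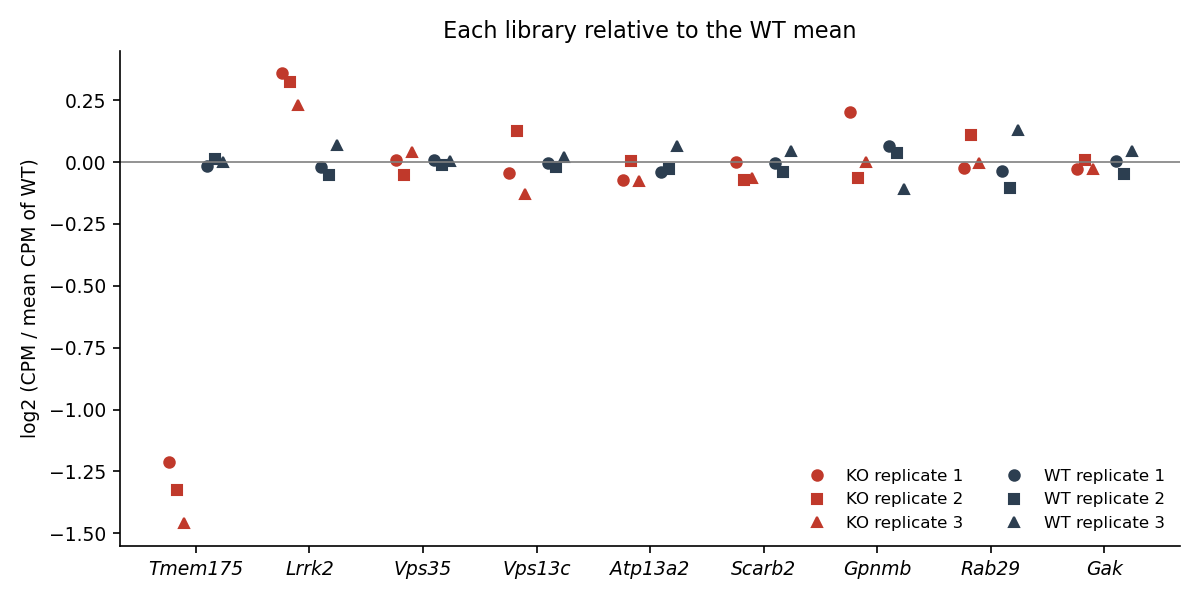
Expression of each gene in each library, as log2 of its CPM over the mean CPM of the 3 WT libraries, with KO libraries in red to the left of WT libraries in dark blue and a marker shape for each replicate number. Tmem175 stands far below 0 in all 3 KO libraries, Lrrk2 somewhat above it, and the libraries of the other 7 genes overlap.

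Tmem175 encodes a potassium and proton channel of the membrane of endosomes and lysosomes, and is the gene targeted in the KO cells. The KO libraries held 451, 397 and 317 counts of it, or 14.3, 13.2 and 12.1 CPM, against 786, 814 and 835 counts, or 32.8, 33.4 and 33.2 CPM, in the WT libraries. The groups were far apart, and the observed spread was wider in KO, with a coefficient of variation of 8.53%, than in WT, with 0.958%. Each coefficient rests on 3 libraries, and a difference in spread between genotypes was not tested. The log2 fold change was -1.33 with a 95% interval from -1.48 to -1.17 (SE 0.07, adjusted p = 6.01e-05 by edgeR), so KO libraries kept 0.399 of the WT level, with an interval from 0.358 to 0.444. It had the smallest p of all genes tested. In bulk libraries such as these, fewer cells with transcript and less transcript per cell cannot be told apart.

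These are counts over the whole gene (ENSMUSG00000013495, GRCm38 chromosome 5, 108629770 to 108648782, plus strand), with 5928 bases of merged exon. Which exons were deleted is not stated in the labels, and reads from exons outside them still count. At its downstream end the gene shares 2090 exon bases with Dgkq, a diacylglycerol kinase gene on the opposite strand, and the strand setting of the counting is not given. Reads in that stretch therefore cannot be assigned with certainty. Dgkq itself averaged 17.1 ± 0.545 CPM in KO and 16.5 ± 1.27 CPM in WT libraries (SD, n = 3 each), with a log2 fold change of 0.05 (SE 0.08).

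Over the 6 libraries, the genes with the pattern most like that of Tmem175 had far smaller differences between genotypes. Of 9539 genes that averaged 5 CPM or more, the highest Pearson r of log2 CPM with Tmem175 was 0.985 for Slc35e2, followed by 0.979 for Gm15931, 0.976 for the nucleoporin gene Nup188, 0.975 for the nucleoporin gene Ahctf1 and 0.972 for Immt, an organiser of mitochondrial cristae. Their log2 fold changes ran from -0.21 to -0.07, and none was called, with adjusted p-values from 0.446 to 0.953 (edgeR). A likeness over 6 libraries in 2 groups rests mainly on the direction of the genotypes and on which libraries were highest within each, and it is given as a description.

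Gak is the nearest neighbour of Tmem175. It encodes cyclin G-associated kinase, whose J domain recruits Hsc70 to strip clathrin from vesicles. In GENCODE M21 Gak begins at 108629755 on the minus strand, with 14 bases between that base and the first of Tmem175. The genes are therefore transcribed away from each other. In RefSeq (GRCm38.p6) the start sites are 108629777 for Gak and 108629810 for Tmem175, with 32 bases between them. Windows of 250 bases before to 50 bases after each start were available for 7 of the 9 genes, not for Vps35 and Vps13c, and the windows of Tmem175 and Gak share 132 bases. This shared stretch, at chr5:108629728-108629859 on GRCm38.p6, is shown on the plus strand from 5′ to 3′ because it holds the starts of both a gene that fell and a gene that did not pass the test. Capitals mark TGACGT, the core of a cyclic AMP response element, which lies before the start of Tmem175 and after that of Gak, within the Gak transcript.
Tmem175 and Gak, shared stretch: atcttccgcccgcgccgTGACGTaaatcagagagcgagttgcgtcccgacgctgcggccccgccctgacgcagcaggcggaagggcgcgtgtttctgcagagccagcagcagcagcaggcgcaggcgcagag

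Of the shared bases 68.9% were G or C. The motif TGACGT, searched on both strands, occurred in these 2 windows of the 7, where it is the same match, and in 7.51% of all 32851 windows of that length. The motif CACGTG, the E-box bound by the TFEB family of lysosomal regulators, was in none of the 7 windows and in 7.15% of all. A match is a description of letters and not of binding.

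While Tmem175 fell, Gak stood at 178, 182 and 178 CPM in KO and 181, 175 and 187 CPM in WT libraries. The groups overlapped, and Gak had the smallest coefficient of variation of the 9 genes in KO, 1.41%. Its log2 fold change was -0.02 with a 95% interval from -0.11 to 0.08 (adjusted p = 0.979 by edgeR), or a fold between 0.924 and 1.06. Within 200 kb of the start of Tmem175, 8 other genes were tested and none was called by edgeR or DESeq2. Their log2 fold changes ran from -0.20 for Slc26a1, a sulfate transporter gene at 0.799 ± 0.249 CPM in KO and 0.925 ± 0.0814 CPM in WT (SD, n = 3 each), to 0.06 for Atp5k, a subunit gene of ATP synthase. Idua, which encodes the lysosomal enzyme alpha-L-iduronidase, averaged 70.1 ± 1.07 CPM in KO and 67.8 ± 2.40 CPM in WT libraries (SD, n = 3 each; log2 fold change 0.05, SE 0.05).

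**Figure D2:**
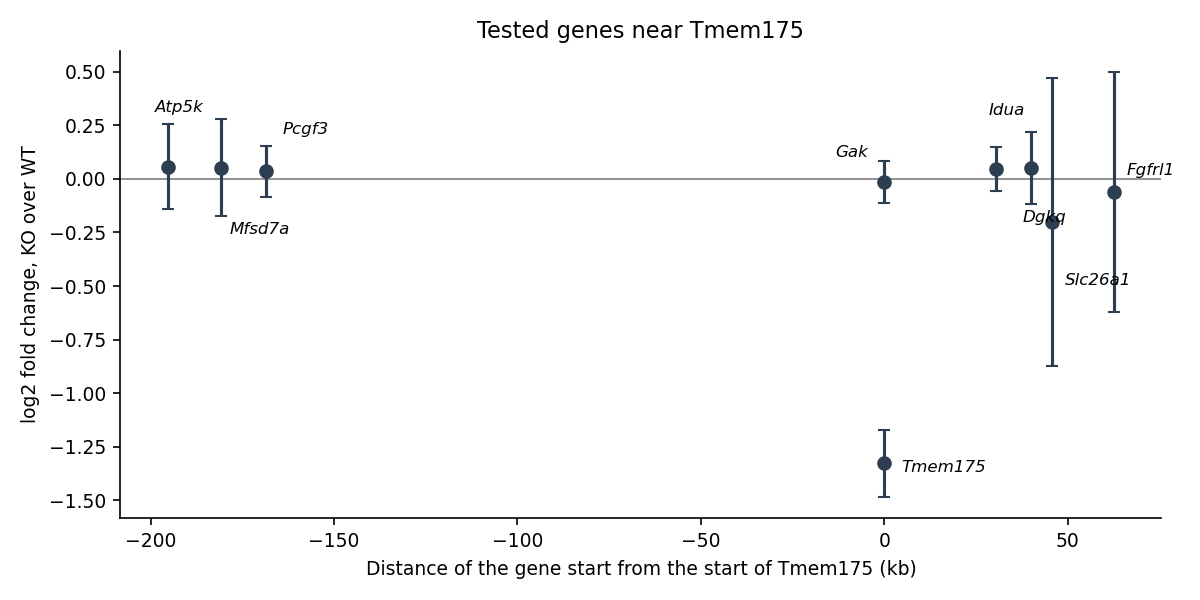
Log2 fold change of KO over WT, with 95% intervals, for the 9 genes tested within 200 kb of the start of Tmem175, against the distance of each gene's start from that of Tmem175 in kb. Tmem175 lies at -1.33, while the intervals of Gak and of the other 7 genes all include 0.

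Lrrk2 encodes a large kinase with a GTPase domain that phosphorylates Rab GTPases on membranes, and in the human disease it is a frequent site of inherited mutations. Its counts were 534, 497 and 408 in KO and 312, 310 and 349 in WT libraries, which correspond to 16.9, 16.5 and 15.5 CPM in KO and 13.0, 12.7 and 13.9 CPM in WT. Every KO library lay above every WT library. The log2 fold change was 0.31 with a 95% interval from 0.14 to 0.47 (SE 0.07), a fold of 1.24, but the adjusted p was 0.446 by edgeR and Lrrk2 was not called. Its unadjusted p of 0.00203 ranked 62 among 13588 genes, of which 739, or 5.44%, had an unadjusted p under 0.05. Under 14 alternative settings the log2 fold change stayed between 0.28 and 0.35, and its adjusted p between 0.109, with no filter on low counts, and 0.9999, without KO replicate 2, so it was called under none of them.

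Lrrk2 is also expressed in other leukocytes, and the summed levels of some of their markers stood apart between the groups. The 7 markers of neutrophils and their precursors, none of them at 0, summed to 672 to 723 CPM in KO and 389 to 573 CPM in WT libraries. Of these, 5 had a positive and 2 a negative log2 fold change, from 0.70 for S100a8, a calgranulin gene, to -0.76 for Mpo, the myeloperoxidase gene of early granulocytes; 5 of the 7 had an unadjusted p under 0.05. None was called by edgeR in the main fit, while DESeq2 called 3, S100a8 and S100a9 higher and Mpo lower in KO. Some other settings of edgeR called markers too: S100a8 with library totals alone and without WT replicate 3, and S100a8 and S100a9 with the replicate block. With no filter edgeR called 5 of the 7, Ltf, Mpo, Ngp, S100a8 and S100a9, and limma-voom called S100a8. The remaining settings called none. The 7 markers of T, B and NK cells summed to 9.92 to 13.1 CPM in KO and 13.3 to 16.5 CPM in WT libraries. Of them 4 passed the filter, all 4 with a negative log2 fold change and 3 with an unadjusted p under 0.05 by edgeR. The 5 mast cell and basophil markers summed to 5.44 to 12.2 CPM in KO and 12.9 to 20.1 CPM in WT, and Cma1 was at 0 in all 6 libraries. The 4 tested had log2 fold changes from -1.08 to -0.64, each with an unadjusted p under 0.05 by edgeR. In all 4 every KO library lay below every WT library. None of these lymphoid, mast cell and basophil markers was called in the main fit. With no filter edgeR called Ms4a1, Cpa3 and Prss34, lower in KO, and no other setting called any of them. The part of these cells in the values of Lrrk2 was not tested.

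Lrrk2 was the lowest of the 9 genes for its length, and its window is shown for comparison with that of Gpnmb below, the highest. It lies at chr15:91672974-91673273 (RefSeq, GRCm38.p6, plus strand), has 68.7% G or C, above 88.5% of all windows, and holds none of the motifs searched. It is printed in lower case throughout for that reason.
Lrrk2, 250 bases before to 50 after the start: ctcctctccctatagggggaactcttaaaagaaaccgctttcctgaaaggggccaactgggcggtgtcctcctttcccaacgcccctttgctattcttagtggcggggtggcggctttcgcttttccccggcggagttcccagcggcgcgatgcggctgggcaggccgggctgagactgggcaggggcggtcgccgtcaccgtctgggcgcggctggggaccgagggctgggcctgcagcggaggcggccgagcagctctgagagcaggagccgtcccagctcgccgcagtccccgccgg

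Rab29 encodes a small GTPase of the Golgi and of stressed lysosomes that recruits LRRK2 to membranes. It stood at 33.7, 36.9 and 34.2 CPM in KO and 33.4, 31.9 and 37.5 CPM in WT libraries. The highest and the lowest value both came from WT libraries, and the log2 fold change was 0.03 with a 95% interval from -0.13 to 0.19 (adjusted p = 0.979 by edgeR).

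The wider list of LRRK2 and its paralogue, Rab substrates, effectors and the Rab phosphatase gene Ppm1h had 21 genes tested, including Lrrk2 and Rab29, and none was called in either direction. Its median log2 fold change was -0.02, with 8 genes positive and 13 negative. After Lrrk2 the smallest p in the list was that of Lrrk1, the paralogous kinase gene, at 67.9 ± 1.88 CPM in KO and 72.6 ± 1.26 CPM in WT libraries (SD, n = 3 each; log2 fold change -0.10, 95% interval -0.20 to 0.0037). The paralogues therefore had point estimates of opposite sign, and neither passed the test. Per kb of exon, Lrrk1 had 6.59 CPM in KO and 7.05 CPM in WT, against 1.38 CPM in KO and 1.12 CPM in WT for Lrrk2, so Lrrk1 was the more abundant kinase transcript of the pair. Among the Rab substrates, per kb of exon, Rab5c had 173 CPM in KO and 175 CPM in WT, Rab8a 26.4 CPM in KO and 26.7 CPM in WT, and Rab10 55.3 CPM in KO and 54.6 CPM in WT.

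Vps35 encodes the scaffold subunit of retromer, which returns receptors from endosomes to the Golgi and the cell surface. It had the smallest difference of the 9 genes, at 214.9, 205.8 and 219.5 CPM in KO and 214.9, 211.6 and 214.1 CPM in WT libraries. The WT libraries lay within the range of the KO libraries, and the log2 fold change was -0.0011 with a 95% interval from -0.10 to 0.10 (adjusted p = 0.998 by edgeR). Near its start the gene shares 171 exon bases with Orc6 on the opposite strand. Of the list of retromer, sorting nexins and the actin-nucleating WASH complex, 20 of 20 genes were tested and none was called. Their median log2 fold change was 0.0071, and 13 were positive and 7 negative. The smallest p-values belonged to the WASH subunit gene Washc3, at 27.6 ± 0.289 CPM in KO and 25.7 ± 0.886 CPM in WT libraries, and the sorting nexin gene Snx1, at 149 ± 0.724 CPM in KO and 142 ± 1.26 CPM in WT libraries (SD, n = 3 each). Their log2 fold changes were 0.11 (SE 0.05) and 0.06 (SE 0.04). The other core subunit genes, Vps26a, Vps26b and Vps29, had log2 fold changes of -0.0032, 0.03 and 0.07.

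Vps13c encodes a long protein that bridges the endoplasmic reticulum and late endosomes or lysosomes and conducts lipids between them. It stood at 162, 183 and 153 CPM in KO and 167, 165 and 170 CPM in WT libraries. The KO libraries spread more than the WT libraries, with a coefficient of variation of 9.11% in KO against 1.45% in WT, a difference that was not tested. KO replicate 2 was the highest and KO replicate 3 the lowest of all 6. The log2 fold change was -0.01 with a 95% interval from -0.15 to 0.13 (adjusted p = 0.989 by edgeR). Of 12 listed genes of this family and its partners 8 could be matched, all 8 were tested and none was called, with log2 fold changes from -0.01 to 0.05. Those with the smallest p-values were Atg2a, an autophagy lipid transfer gene, at 0.05 (SE 0.07), and Vps13a, at 0.03 (SE 0.06). Per kb of exon, Vps13c led its family with 10.2 CPM in KO and 10.3 CPM in WT, ahead of Vps13b with 4.74 CPM in KO and 4.68 CPM in WT, Vps13d with 4.72 CPM in KO and 4.68 CPM in WT, and Vps13a with 1.75 CPM in KO and 1.72 CPM in WT.

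Gak and the genes of the clathrin coat cycle, among them clathrin chains, the AP-1 and GGA adaptors of the Golgi and the mannose 6-phosphate receptors, gave 17 tested genes with none called and a median log2 fold change of 0.0018. The smallest p-values were those of Ap1s1, an AP-1 subunit gene, at 93.8 ± 2.87 CPM in KO and 88.3 ± 1.99 CPM in WT libraries, and Bmp2k, a kinase gene related to Gak, at 66.1 ± 0.358 CPM in KO and 69.1 ± 2.91 CPM in WT libraries (SD, n = 3 each). Dnajc6, the auxilin gene and neuronal counterpart of Gak, did not pass the filter: it averaged 0.149 CPM in KO and 0.0817 CPM in WT libraries. Its counts were 4, 5 and 4 in KO and 2, 2 and 2 in WT libraries, while those of Gak were 4667 to 5600 in KO and 4257 to 4701 in WT.

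Atp13a2 encodes a lysosomal P5-type ATPase that exports polyamines to the cytosol. It stood at 579, 609.5 and 576 CPM in KO and 592, 597 and 636 CPM in WT libraries, with overlapping groups. The log2 fold change was -0.05 with a 95% interval from -0.16 to 0.06 (adjusted p = 0.972 by edgeR). Among the P5-type ATPases, Atp13a1, an enzyme of the endoplasmic reticulum, had the smallest p, at 82.8 ± 1.75 CPM in KO and 87.1 ± 3.28 CPM in WT libraries (SD, n = 3 each; log2 fold change -0.07, SE 0.05), and none of the 3 tested was called. Atp13a3 had a log2 fold change of 0.02. Atp13a5 had a count of 0 in all 6 libraries, and Atp13a4 averaged 0.0439 CPM in KO and 0.0808 CPM in WT. Per kb of exon, Atp13a2 had 98.0 CPM in KO and 101 CPM in WT, against 21.2 CPM in KO and 22.3 CPM in WT for Atp13a1 and 11.9 CPM in KO and 11.8 CPM in WT for Atp13a3.

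Scarb2 encodes LIMP-2, an abundant lysosomal membrane protein of the CD36 family that also escorts a hydrolase to the lysosome. It stood at 294, 279.7 and 281 CPM in KO and 293, 286 and 303 CPM in WT libraries. The groups overlapped and the log2 fold change was -0.05 with a 95% interval from -0.15 to 0.06 (adjusted p = 0.971 by edgeR). Its 2 relatives, both scavenger receptor genes, were not called: Cd36 stood at 333 ± 89.4 CPM in KO and 378 ± 72.4 CPM in WT libraries (SD, n = 3 each; log2 fold change -0.18, SE 0.18), and Scarb1 at a log2 fold change of -0.0013 (SE 0.06). The window of Scarb2 was the only one of the 7 with a match to the M-box, TCATGTG on either strand, a motif of the MITF family that 3.77% of all windows held. The match is read on the opposite strand and begins 32 bases before the RefSeq start at 92505657. In GENCODE M21 the gene begins upstream of that, at 92506833 on the minus strand, so there the match lies within the gene. The match is shown in capitals at chr5:92505668-92505704 (GRCm38.p6, minus strand).
Scarb2, around the M-box: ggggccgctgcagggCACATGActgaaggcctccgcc

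Gpnmb encodes a membrane glycoprotein of lysosomes and phagosomes that macrophages make in large amounts when they are lipid-laden or their lysosomes are burdened. It was by far the most abundant of the 9 transcripts and took 1.44% ± 0.121 of all counts in KO and 1.35% ± 0.101 in WT libraries (SD, n = 3 each). The libraries stood at 15781, 13118 and 13707 CPM in KO and 14361, 14064 and 12731 CPM in WT. KO replicate 1 was the highest and WT replicate 3 the lowest, with the others between them in mixed order. The log2 fold change was 0.05 with a 95% interval from -0.13 to 0.23 (adjusted p = 0.979 by edgeR), the widest interval of the 7 genes whose groups overlapped. Among genes of the MiT/TFE transcription factors and the Gpnmb relative Pmel, 6 were tested with Gpnmb and none was called. Mitf had 79.8 ± 4.36 CPM in KO and 82.0 ± 3.67 CPM in WT libraries (SD, n = 3 each), and the smallest p belonged to Pmel, at 0.560 ± 0.226 CPM in KO and 0.681 ± 0.202 CPM in WT libraries (SD, n = 3 each).

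The window of Gpnmb lies at chr6:49036268-49036567 (RefSeq, GRCm38.p6, plus strand). It has 47.7% G or C, above 30.8% of all windows, and like that of Lrrk2 it holds none of the motifs searched, so no letters are in capitals. The other windows had 66.7% G or C for Atp13a2, 67.3% for Scarb2, 68.7% for Gak, 45.3% for Rab29 and 69.7% for Tmem175. A relation between these shares and the levels was not tested.
Gpnmb, 250 bases before to 50 after the start: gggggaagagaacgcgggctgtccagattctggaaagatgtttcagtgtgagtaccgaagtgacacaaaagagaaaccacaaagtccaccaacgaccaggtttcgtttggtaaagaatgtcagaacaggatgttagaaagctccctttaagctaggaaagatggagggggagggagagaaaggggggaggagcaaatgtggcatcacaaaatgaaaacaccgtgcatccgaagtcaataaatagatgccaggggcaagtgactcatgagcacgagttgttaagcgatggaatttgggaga

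Levels of different genes were compared per kb of merged exon. Gpnmb led with 2180.2 ± 215 CPM per kb in KO and 2106 ± 133 CPM per kb in WT libraries (SD, n = 3 each), and held rank 15 of 13573 tested genes with an annotated length in both. Atp13a2 followed with 98.0 ± 3.08 CPM per kb in KO and 101 ± 4.05 CPM per kb in WT, then Scarb2 with 45.3 ± 1.26 CPM per kb in KO and 46.8 ± 1.35 CPM per kb in WT. Gak had 27.8 ± 0.392 CPM per kb in KO and 28.1 ± 0.933 CPM per kb in WT. Vps35, with 23.98 ± 0.781 CPM per kb in KO and 23.998 ± 0.192 CPM per kb in WT, and Rab29, with 23.8 ± 1.18 CPM per kb in KO and 23.3 ± 1.96 CPM per kb in WT, stood close together in the middle of the order (SD, n = 3 each).

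Vps13c was lower, and Tmem175 and Lrrk2 closed the order in both genotypes. Tmem175 had 2.23 ± 0.190 CPM per kb in KO and 5.59 ± 0.0536 CPM per kb in WT libraries (SD, n = 3 each). Lrrk2, at 1.38 ± 0.0620 CPM per kb in KO and 1.12 ± 0.05002 CPM per kb in WT (SD, n = 3 each), held rank 9607 in KO and rank 10066 in WT, where 25.8% of the genes lay below it. From the highest to the lowest of the 9 genes, WT levels spanned 1886-fold. Neighbours in the order had 3-library ranges that did not overlap in either genotype, except Vps35 and Rab29, whose ranges overlapped in both. With the longest transcript as the length, Vps35 moved above Gak.

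**Figure D3:**
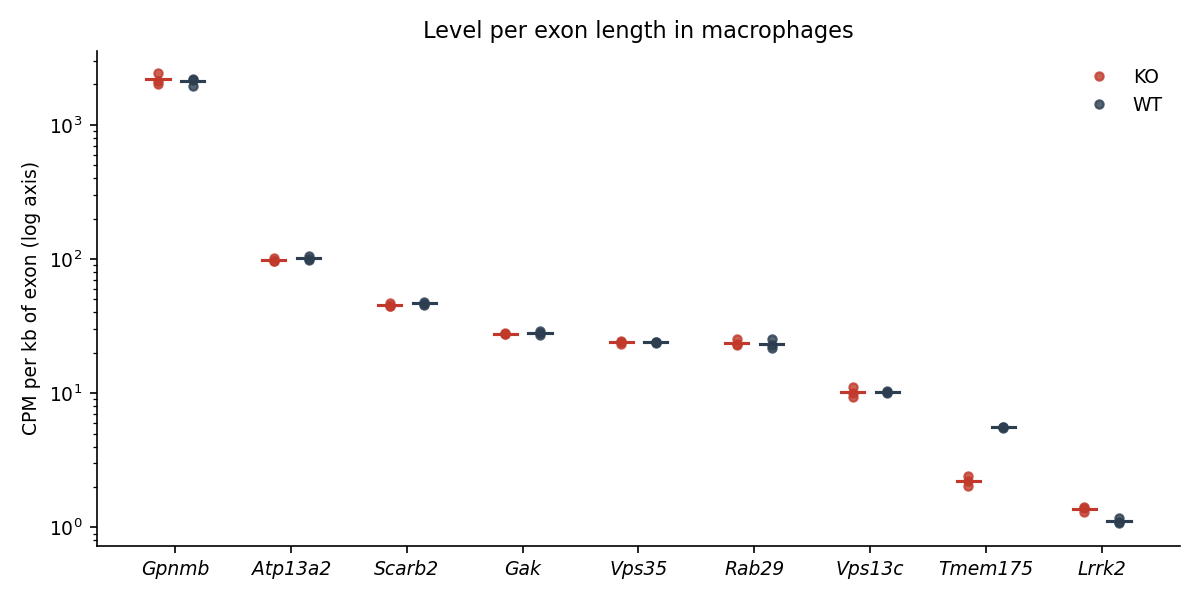
Level of each gene in CPM per kb of merged exon on a log axis, with KO libraries in red to the left of WT libraries in dark blue; points are libraries and lines are means of 3. The order from Gpnmb, at 2180.2 in KO and 2106 in WT, to Lrrk2, at 1.38 in KO and 1.12 in WT, is the same in both genotypes.

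For the 7 genes other than Tmem175 and Lrrk2, the 95% intervals together reached from a fold of 0.896 to one of 1.17. These intervals are not adjusted for the number of genes, and a p that misses the threshold does not show that levels were equal. Coefficients of variation between wells ran from 0.800% to 9.85% for these 7 genes.

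**Figure D4:**
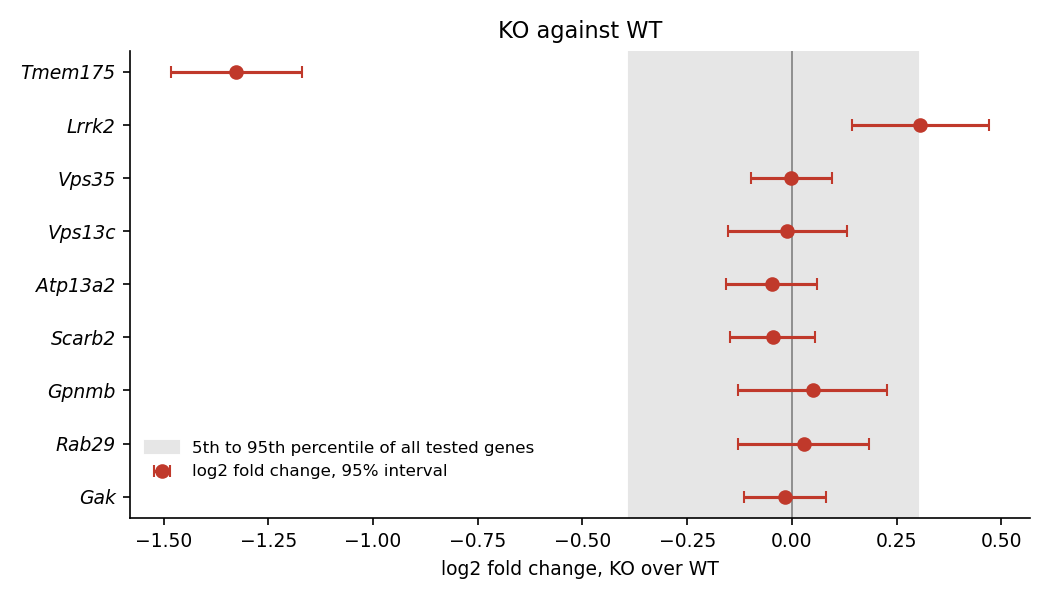
Log2 fold change of KO over WT with its 95% interval for each of the 9 genes; the grey band spans the 5th to 95th percentile of all 13588 tested genes, -0.39 to 0.30. Tmem175 lies at -1.33, outside the band, Lrrk2 at 0.31, at its upper edge, and the others within 0.05 of 0.

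The related lists together held 97 genes besides the 9, of which 91 were tested and 6 did not pass the filter. None was called by edgeR or DESeq2, the lowest adjusted p being 0.908 (edgeR), and 1, or 1.10%, had an unadjusted p under 0.05, against 5.44% of all genes. The log2 fold change was positive for 43 of the 91 and negative for 48, and its median was -0.0014. The groups did not overlap in 9 of the 91, or 9.89%, against 10.8% of all genes. The 1 gene with an unadjusted p under 0.05 was Pink1, which encodes a kinase that marks damaged mitochondria and is mutated in familial Parkinson disease. It stood at 101 ± 5.31 CPM in KO and 113 ± 11.0 CPM in WT libraries (SD, n = 3 each; log2 fold change -0.17, 95% interval -0.33 to -0.0046), with overlapping libraries.

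Pink1 belongs to a list of other genes tied to the disease, of which 17 of 20 were tested. Their log2 fold changes were positive for 3 and negative for 14, beside 49.6% positive over all genes tested, and the median was -0.03. None of the 17 was called. All were measured in the same 6 libraries, so their signs are not independent, and a shared shift was not tested. After Pink1 the smallest p was that of Dnajc13, which encodes an endosomal J-domain protein, at 184 ± 6.90 CPM in KO and 192 ± 8.57 CPM in WT libraries (SD, n = 3 each; log2 fold change -0.07, SE 0.05). Ctsb, a lysosomal protease gene, stood at 18007 ± 1470 CPM in KO and 18301 ± 479 CPM in WT (SD, n = 3 each).

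**Figure D5:**
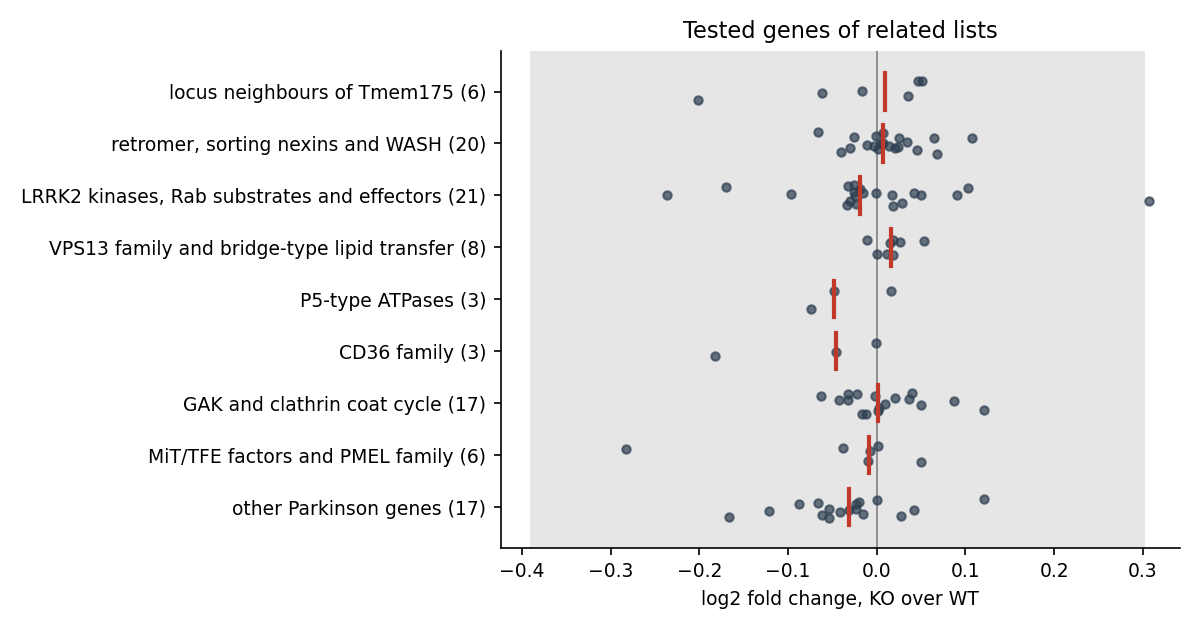
Log2 fold change of KO over WT for the tested genes of each related list, with the number tested in brackets; each point is a gene, the red bar is the list's median, and the grey band spans the 5th to 95th percentile of all tested genes. Medians lie between -0.05 and 0.02; Lrrk2, at 0.31, is the point farthest to the right, and Pmel, at -0.28, the one farthest to the left.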

How the data were processed

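RNA came from TRIzol lysates, and a SMARTer mRNA kit was used for the libraries, per the labels. The deposited table holds whole-number counts per Ensembl gene, for which the authors used HISAT2, featureCounts and the build GRCm38, per the submitters' processing notes; tool versions, annotation release and strand setting are not stated there. Positions, symbols and exon lengths came from GENCODE M21 on the same build, in which 55154 of 55421 IDs were found, and promoter windows from RefSeq on GRCm38.p6.

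Low counts were removed by filterByExpr and libraries scaled by TMM (edgeR 4.0.16, R 4.3.3). The comparison of KO with WT used the quasi-likelihood test of edgeR, two-sided and with no term but genotype, with Benjamini-Hochberg adjustment over the 13588 genes left and a threshold of 0.05. The F statistic gave the 95% interval and standard error of each log2 fold change, with a common biological coefficient of variation of 0.0744. The fitting script was tested on simulated data. Levels per kb are CPM divided by merged exon length, and log2 CPM for likeness to Tmem175 used a prior count of 2.

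The members and lists were chosen with earlier results of these data known, and the motifs after the windows had been seen. All members are named, and in each list of related genes the called genes or else up to 2 with the smallest p; marker lists are given by their sums; other relatives of a member are named for their role, chosen after their values were seen. Of 166 list entries, 162 matched a gene. Alternatives were 3 other scalings, the DESeq2 1.42.0 Wald test, limma-voom (limma 3.58.1), 2 other filters, the replicate number as a block, leaving out each library, and for levels 2 other measures of length and scale. No libraries or columns were left out.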

Additional observations from a re-analysis of the deposited data

How the results depend on the processing

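Tmem175 was called and lower in KO under all 14 alternatives, with log2 fold changes from -1.39 to -1.27 and adjusted p-values from 5.89e-36 (DESeq2) to 0.00115, and Lrrk2 was higher and not called under all 14. Over all genes 14 were called, against 40 with the DESeq2 Wald test and 151 with no filter. Among genes averaging 10 CPM or more 5 were called, and 4 to 12 when a library was left out. DESeq2 tested the same 13588 genes as the main fit, while no filter left 25959 and the filter at 10 CPM 8247. The cause of the differences in these counts was not tested. The count of members with separate groups, 2, ran from 2 to 4 when a library was left out, settings for which no share over all genes was computed. With the longest transcript as the length, 7 of the 9 genes kept their place in the order of levels, and with TPM all 9.

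The small log2 fold changes of 5 genes changed sign without a call. Library totals alone, which moved the median of all genes to 0.04, gave 0.042 for Vps35, 0.034 for Vps13c and 0.028 for Gak, and no filter gave 0.0083 for Vps35. When a library was left out the ranges were -0.021 to 0.027 for Vps35, -0.082 to 0.045 for Vps13c, -0.040 to 0.0077 for Gak, -0.031 to 0.11 for Gpnmb and -0.020 to 0.099 for Rab29. With the replicate block, 17 genes were called, and the log2 fold changes were -1.33 for Tmem175 and 0.31 for Lrrk2. The numbers were not taken to pair the wells because nothing in the labels says that they do. Deviations of libraries with the same number correlated at 0.057, -0.12 and 0.039, and those with unlike numbers at -0.17 to 0.14. With 3 libraries a group, these values cannot decide whether wells were paired. The smallest count behind a member was 310, for Lrrk2. The largest SE of a log2 fold change was that of Gpnmb, the most abundant member, at 0.079, beside 0.073 for Lrrk2 and 0.069 for Tmem175.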
